A study of Mus musculus with 18 samples.

Results

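The 38 genes described here are needed for DNA replication and cell division, and each was found by its gene symbol in the table of 36737 genes. The set was chosen on measured values of these libraries, since Top2a had been seen to be lower after fracture, so the differences of these genes between fracture and sham are described and are no test of them. All 38 genes passed the filter on low counts, which 21340 genes passed over all 18 libraries. The cycle genes were measured in bulk poly(A) RNA-seq of lumbar dorsal root ganglia (DRG, the clusters of sensory neurons and glia beside the spinal cord) at L3 to L5 in CD1 mice. The 3 groups were Sham (sham surgery), Fracture (tibial fracture with vehicle) and Fracture+PDX (the same fracture with PDX, a lipid mediator of the protectin family), with 6 mice each, 3 males and 3 females. The tibia was pinned and cut under isoflurane anesthesia, PDX was dissolved in PBS, and the fracture groups were sampled on day 3; the dose and schedule of PDX for these mice, and the day for sham mice, are not given in the sources used here. All animals were adult outbred mice without a transgene, and no group received PDX without fracture. A bulk library does not separate fewer cells of a type from less RNA per cell.

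Cells that divide copy their DNA in S phase and separate it in mitosis, and most genes for these steps are transcribed only while a cell is cycling. Their promoters are held down in resting cells by pocket proteins and are switched on by E2F factors for S phase and by a MuvB complex with B-Myb and FoxM1 for mitosis. Sensory neurons of the adult DRG do not divide, whereas satellite glia, Schwann cells, endothelial cells and infiltrating blood cells can.

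The upstream sequences of Top2a, Mki67, Cdk1 and Mcm6 are shown, 4 of the 5 genes given by range in all 3 groups. They are shown because mitotic promoters are known to be read through a CCAAT box and a cell cycle homology region (CHR, TTTGAA). The sequences come from a set of RefSeq promoter windows (GRCm38.p6, the build of the deposited coordinates). That set of windows held 33 of the 38 genes, and Ccna2, Kif20a, Aurkb, Foxm1 and Tpx2 were not matched in it. Each line is the 150 bases before the RefSeq start, 5′ to 3′ on the strand of the gene, with matches to 3 motifs in capitals on either strand. The motifs are CCAAT, the CHR letters TTTGAA, and an E2F site taken as TTTCCCGC in its first form and as TTTGGCGC in its second; no motif contains another. The Top2a stretch lies at chr11:99024190-99024339 on the minus strand, Mki67 at chr7:135716380-135716529 on the minus strand, Cdk1 at chr10:69352913-69353062 on the minus strand and Mcm6 at chr1:128359706-128359855 on the minus strand. The RefSeq starts are not always those of the deposited gene coordinates: they are the same for Top2a and differ by 18 bases for Mki67, 26 for Cdk1 and 41 for Mcm6, and the last 26 bases of the Cdk1 line lie inside the deposited gene. The Pcna stretch is not printed because 134 of its 150 bases lie inside the deposited gene.
Top2a: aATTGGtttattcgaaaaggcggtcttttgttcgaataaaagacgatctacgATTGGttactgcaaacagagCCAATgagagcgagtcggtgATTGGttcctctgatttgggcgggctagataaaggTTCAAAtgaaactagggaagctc
Mki67: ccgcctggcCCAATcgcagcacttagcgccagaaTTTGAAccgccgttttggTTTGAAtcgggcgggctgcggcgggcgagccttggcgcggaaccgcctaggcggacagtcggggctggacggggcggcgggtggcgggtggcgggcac
Cdk1: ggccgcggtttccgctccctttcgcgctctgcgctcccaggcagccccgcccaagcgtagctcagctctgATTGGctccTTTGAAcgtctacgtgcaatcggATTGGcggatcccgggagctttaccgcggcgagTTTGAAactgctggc
Mcm6: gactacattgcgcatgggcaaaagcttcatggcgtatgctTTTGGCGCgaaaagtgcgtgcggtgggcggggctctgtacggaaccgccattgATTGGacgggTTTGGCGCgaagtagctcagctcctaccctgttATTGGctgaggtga

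Top2a held 4 CCAAT matches and 1 CHR match in the printed stretch, Cdk1 held 2 of each, Mki67 held 1 CCAAT and 2 CHR matches, and Mcm6 held 2 CCAAT and 2 E2F matches. Over the 250 bases before the RefSeq start, read on both strands, CCAAT was present in 26 of the 33 matched genes (78.8%), against 33.8% of all 32851 windows. The CHR letters were present in 11 of 33 (33.3%), against 16.0% of all windows, and 10 genes held both (30.3%, against 5.55%). The E2F letters were found in Mcm5 and Mcm6, which is 6.06% of the matched genes, against 1.30% of all windows. The shares include genes whose last 150 bases lie wholly (E2f1 and Kif2c) or mostly (Pcna, 134 bases, and Cenpa, 109 bases) inside the deposited gene. Kif2c, 1 of the 11 with the CHR letters, has its RefSeq start 3867 bases from the deposited start. A match is a description of letters and not a measured binding site.

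The sham libraries stand under columns headed Con, read here as the sham group because the other columns carry the names of the other groups, and every sham value rests on that reading. The deposited tables gave 63235040 to 82824942 counts per library. All 10 sensory neuron markers were detected in every library, at a summed level of 10642 to 12943 CPM (read counts scaled to library size). The 38 cycle genes together made up 180 to 291 CPM. Each of them was low but well covered, from 37 counts (Ccnb1) to 3291 counts (Pcna) in single libraries.

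On the per-length scale (FPKM, fragments scaled to transcript length and library depth, as the authors deposited), Pcna, the clamp that holds DNA polymerase, had the highest level at 14.1 ± 1.08 FPKM (SD over the 18 libraries). E2f1, a transcription factor of S-phase entry, followed at 8.84 ± 0.778 FPKM, and Mcm6, a subunit of the replicative helicase, at 2.43 ± 0.346 FPKM. Rrm2, a subunit of ribonucleotide reductase, was at 2.11 ± 0.900 FPKM, and Cenpf, a large kinetochore protein, was lowest at 0.103 ± 0.0392 FPKM. Of the 37 neighbouring pairs in this order, 4 kept it in all 18 libraries, namely Pcna over E2f1, E2f1 over Mcm6, Mcm5 over Mcm3 and Cenpe over Cenpf, and Kif20a was above Top2a in 17. In the other 32 pairs the gene with the higher mean was the higher one in 5 to 14 libraries, and their order varied with the library. The mean level was below 1 FPKM for 25 of the 38 genes.

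Spread between libraries followed the gene. Pcna and E2f1 had the smallest coefficients of variation in CPM over the 18 libraries, 7.36% and 8.92%. Aurka, a spindle kinase, was at 11.3%, while Mki67, the proliferation antigen Ki-67, reached 46.0% and Ccnb1, cyclin B1, reached 54.1%. These values include differences between the groups. Within sham, fracture and Fracture+PDX the coefficient was 29.0%, 10.2% and 57.5% for Mki67, 28.8%, 34.6% and 44.9% for Ccnb1, 16.6%, 7.57% and 7.30% for Aurka, and 5.38%, 6.58% and 6.23% for Pcna, so Mki67 was near Aurka in the fracture libraries. The highest of the 18 libraries was a sham library for 33 genes, the sham library Female-DRG-1 alone for 22 of them, and the PDX library Male-DRG-1 for the other 5 (E2f1, Ccnb2, Mki67, Kif11 and Aurkb). No gene had its highest value in a fracture library. The set was chosen on fracture against sham, so these counts only describe the choice. The same share over all genes was not counted.

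**Figure D1:**
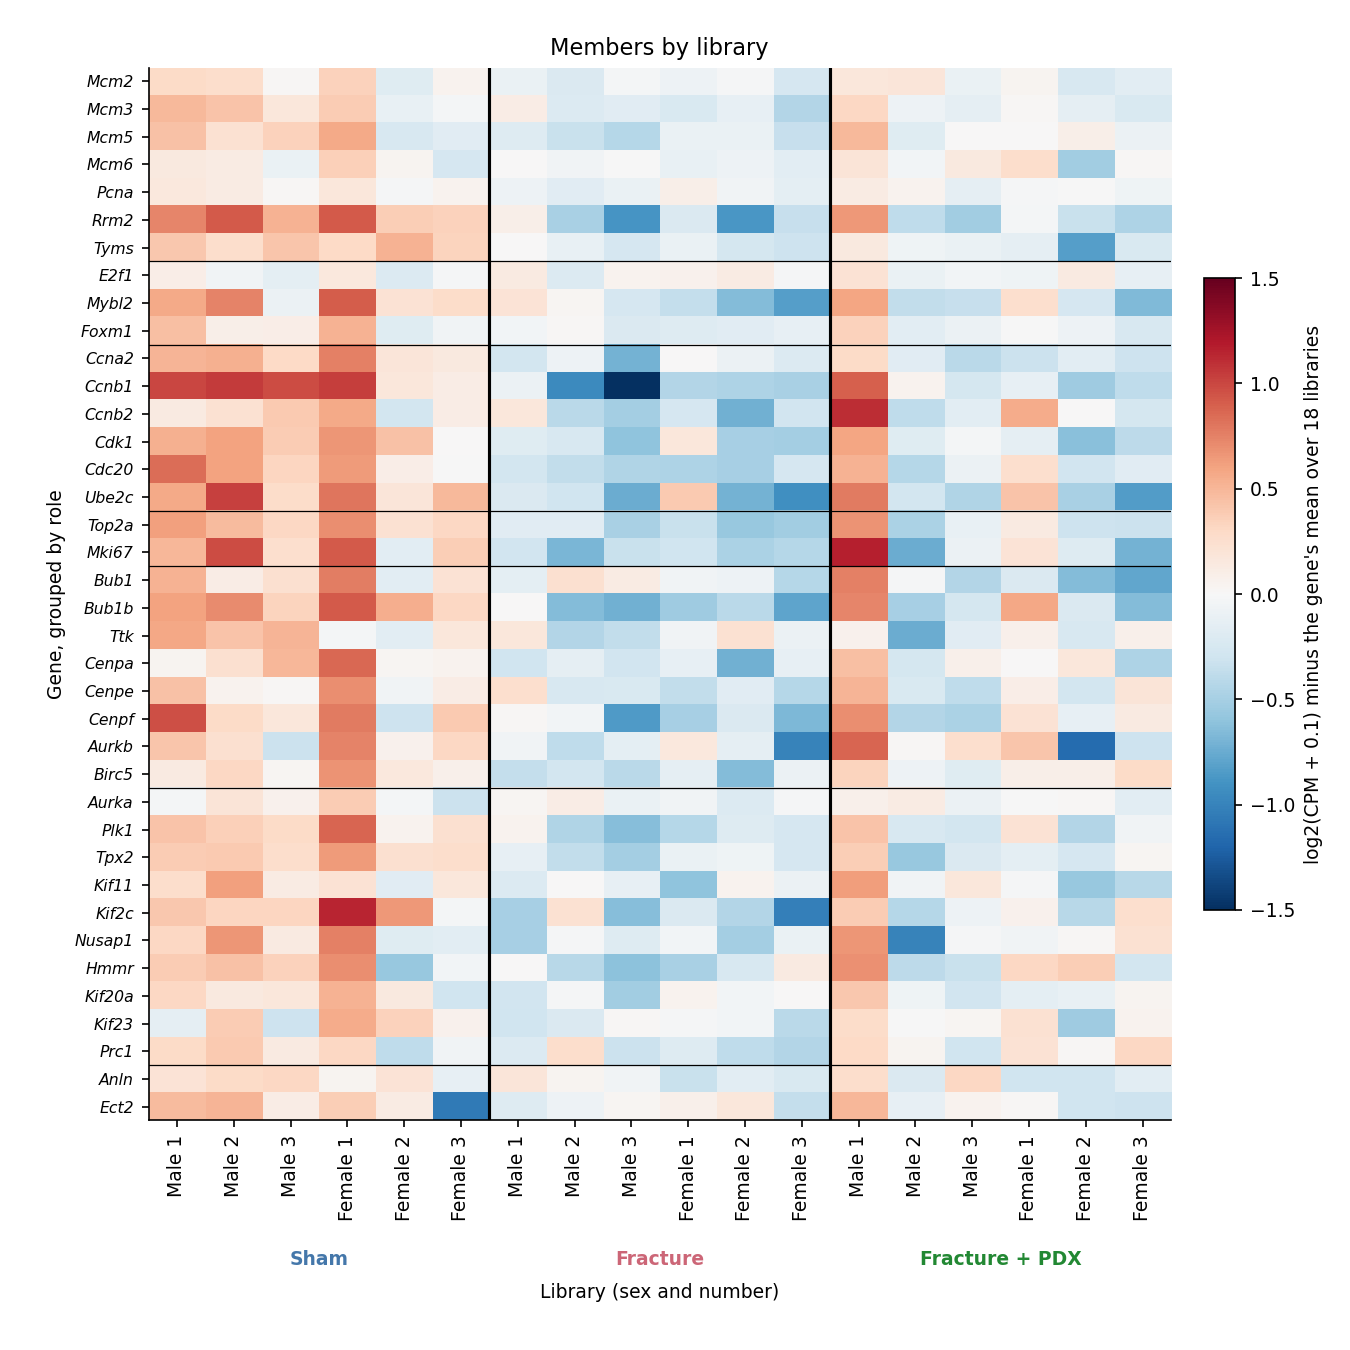
Level of each of the 38 genes (rows, grouped by role and separated by thin lines) in each library (columns, by group, sex and number), as log2(CPM + 0.1) minus the mean of the gene over the 18 libraries, with red above and blue below that mean (colours end at 1.5 either way). Sham libraries are mostly red, fracture libraries are mostly blue, and the PDX library Male-DRG-1 is red for nearly all genes.

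Top2a, the topoisomerase that untangles replicated chromosomes and the gene on which the set was chosen, ranged from 6.63 to 9.26 CPM in sham (median 7.48), from 3.80 to 5.04 in fracture (median 4.24) and from 4.05 to 9.07 in Fracture+PDX (median 4.88). Every sham library lay above every fracture library, and 5 of the 6 PDX libraries lay below the lowest sham library. The remaining PDX library, Male-DRG-1, was at the top of the range, beside the 2 highest sham libraries.

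Mki67 ranged from 7.97 to 17.6 CPM in sham (median 12.1), from 5.496 to 7.29 in fracture (median 6.83) and from 5.28 to 20.03 in Fracture+PDX (median 8.07). Sham and fracture did not overlap, and the PDX range covered both groups. The PDX library Male-DRG-1 had 20.03 CPM, and the next PDX library, Female-DRG-1, had 10.3 CPM.

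Cdk1, the kinase that drives entry into mitosis, ranged from 2.74 to 4.38 CPM in sham (median 3.86), from 1.76 to 3.08 in fracture (median 2.10) and from 1.73 to 4.15 in Fracture+PDX (median 2.43). The sham and fracture ranges touched only through the fracture library Female-DRG-1 at 3.08 CPM and the sham library Female-DRG-3 at 2.74 CPM.

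The replication genes Mcm6 and Pcna showed much less separation. Mcm6 ranged from 10.4 to 16.0 CPM in sham (median 13.2), from 11.2 to 12.5 in fracture (median 11.9) and from 8.66 to 14.99 in Fracture+PDX (median 13.2), with all 3 groups overlapping. Pcna ranged from 36.7 to 41.9 CPM in sham (median 39.8), from 33.2 to 39.7 in fracture (median 35.2) and from 34.1 to 40.7 in Fracture+PDX (median 37.0).

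**Figure D2:**
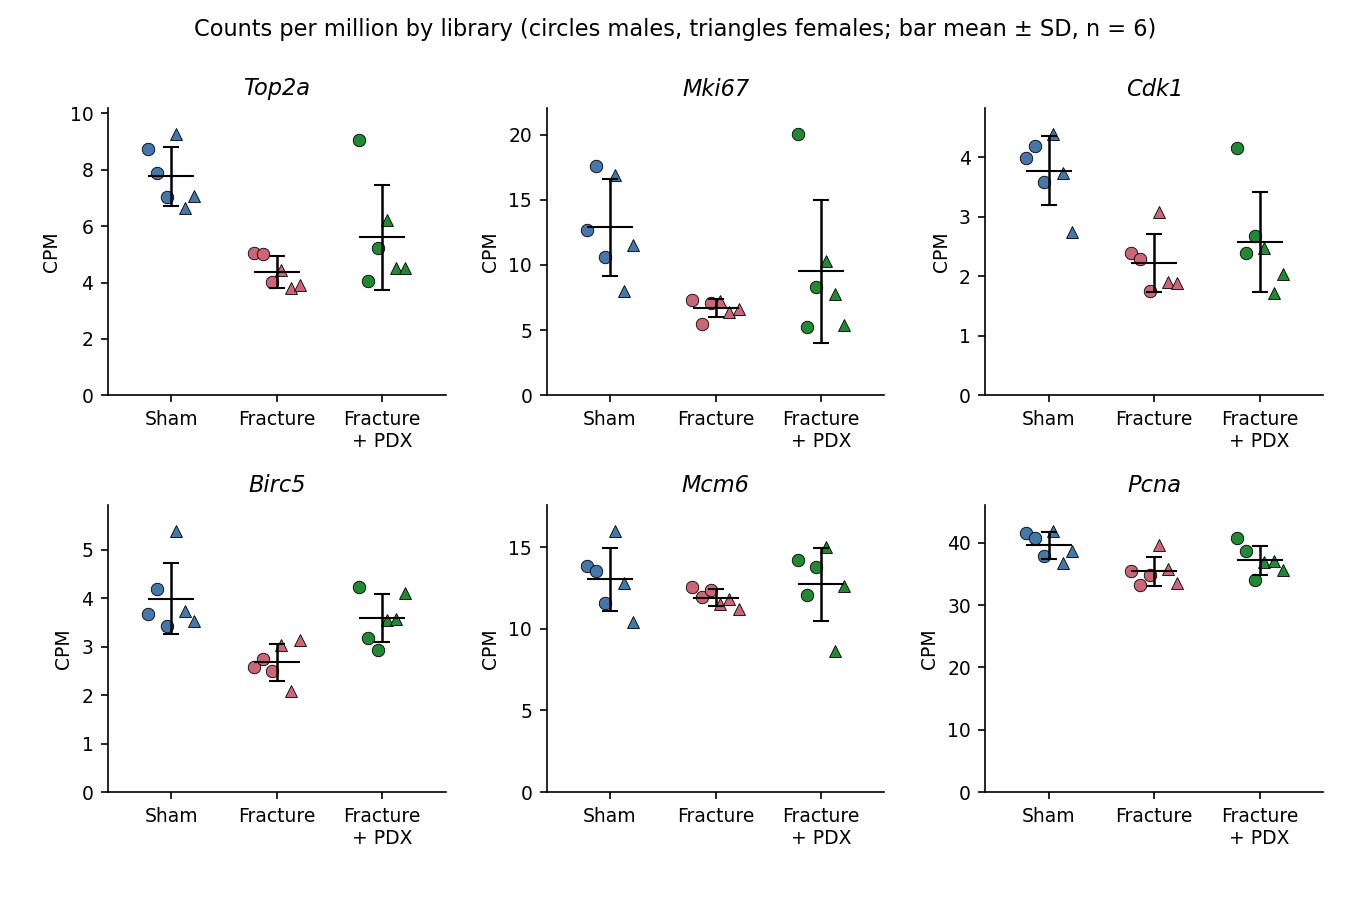
CPM (vertical axes, from 0) of Top2a, Mki67, Cdk1, Birc5, Mcm6 and Pcna in each library by group, with circles for males, triangles for females and bars for the mean ± SD (n = 6). For Top2a, Mki67 and Birc5 every sham library is above every fracture library, and the PDX library Male-DRG-1 stands above the other PDX libraries for Top2a, Mki67 and Cdk1.

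Between fracture and sham, the comparison behind the choice of the set, 37 of the 38 genes had a lower fitted level after fracture and E2f1 a higher one, with a median log2 fold change of -0.53 (range -1.44 to 0.05), against 0.00 over all 20659 genes tested. The edgeR fit over all genes placed 13 of them under an adjusted p of 0.05, all lower after fracture, beside 1.83% of all genes. In 12 genes every sham library was above every fracture library, a pattern found in 1.42% of all genes. Because the set was chosen on this comparison, both counts only describe the choice, and the genes are given below by their levels and fold changes alone.

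By role, the 6 cyclin, Cdk1 and anaphase-promoting complex genes had a median log2 fold change of -0.80. Ccnb1, the mitotic cyclin, was at 2.85 ± 0.822 CPM in sham and 1.04 ± 0.359 in fracture (mean ± SD, n = 6 each; log2 fold change -1.44 ± 0.27 SE), and Cdc20, an activator of the anaphase-promoting complex, at 4.70 ± 1.08 and 2.601 ± 0.195 CPM (-0.84 ± 0.14). Ccna2, cyclin A2, was at -0.65 ± 0.14, Cdk1 at -0.76 ± 0.16, Ube2c, the ubiquitin carrier of that complex, at -0.96 ± 0.23 and Ccnb2 at -0.56 ± 0.18. The 2 chromosome genes were at -0.83 ± 0.11 (Top2a) and -0.94 ± 0.17 (Mki67).

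Among the 8 genes of the kinetochore, the spindle checkpoint and the passenger complex, Bub1b, a checkpoint kinase-like protein, was at -1.14 ± 0.18 and Birc5, survivin, at -0.57 ± 0.14, with a median of -0.55 over the group. Among the 10 spindle genes, with a median of -0.45, Plk1, a mitotic kinase, was at -0.73 ± 0.16, Tpx2, a spindle assembly factor, at -0.61 ± 0.10 and Aurka at -0.10 ± 0.11. The cytokinesis genes Anln and Ect2 were at -0.25 ± 0.07 and -0.21 ± 0.22.

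The 7 replication genes spanned log2 fold changes of -1.08 to -0.13. Rrm2, which makes deoxynucleotides, was at 9.47 ± 1.72 CPM in sham and 4.47 ± 1.21 in fracture (log2 fold change -1.08 ± 0.17), and Tyms, thymidylate synthase, at 3.01 ± 0.202 and 2.03 ± 0.180 CPM (-0.57 ± 0.11). The helicase subunits Mcm2, Mcm3, Mcm5 and Mcm6 were between -0.47 and -0.13, and Pcna at -0.16 ± 0.05. Of the 3 transcription factors, Mybl2 (B-Myb) was at -0.81 ± 0.21, Foxm1 at -0.31 ± 0.13 and E2f1 at 0.05 ± 0.07. The lower values were present in each sex, with a median difference in log2 CPM of -0.52 in males (37 genes lower) and -0.51 in females (35 genes lower), 3 mice against 3 in each.

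Marker levels of other cell types are given beside these differences. All 16 trophoblast and placenta markers were lower in fracture than in sham, 4 of them past the threshold (edgeR adjusted p under 0.05), with summed levels of 208 to 674 CPM in sham, 33.6 to 322 in fracture and 32.0 to 163 in Fracture+PDX. Of the 16, only Prl3d1 was at 0 in any library. The male sham libraries were at 469, 326 and 451 CPM, so this RNA was not limited to females. Where it came from was not tested. All 3 embryonic erythroid markers were past the threshold and lower (70.6 to 151 CPM in sham, 20.5 to 54.9 in fracture and 18.4 to 56.2 in Fracture+PDX). The 8 erythroid markers found were all lower and none was past the threshold (781 to 2225 CPM in sham and 982 to 1363 in fracture). The 7 B-cell precursor markers tested were all lower at a median log2 fold change of -1.37, 1 past the threshold (4.37 to 14.9 and 4.06 to 5.38 CPM over 8 markers, with Vpreb1, Igll1, Dntt and Rag2 at 0 in some library). Of the 6 endothelial markers 5 were lower, 2 of the 6 past the threshold and lower (110 to 153 and 93.1 to 116 CPM). The 10 macrophage markers were all lower, 2 past the threshold (114 to 137 CPM in sham and 86.4 to 118 in fracture), as were the 5 fibroblast markers, 1 past it (1465 to 1945 and 1390 to 1617 CPM), and the 6 mature neutrophil markers tested, 1 past it (45.4 to 183 and 46.1 to 92.4 CPM over 7 markers, Stfa2l1 at 0 in some library). The 8 marrow neutrophil precursor markers were all lower and none was past the threshold (48.0 to 215 and 53.5 to 113 CPM). Other lists were higher after fracture. Of the 10 sensory neuron markers 9 were higher, 2 past the threshold, and the summed levels did not overlap (10642 to 11437 CPM in sham and 11789 to 12510 in fracture). Of the 6 satellite glia markers 5 were higher, 1 past the threshold (2914 to 3674 and 3454 to 3800 CPM), and all 7 skeletal muscle markers were higher at a median of 2.09 with none past it (22.8 to 564 and 46.9 to 1047 CPM). Of the 6 Schwann cell markers 5 were lower and none was past the threshold (10308 to 23764 and 12091 to 18611 CPM), and 3 of the 6 T-cell markers could be tested, 2 of them lower and none past it. The part of these cells in the lower cycle genes was not tested.

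PDX was compared with vehicle after fracture to ask whether the cycle genes differed between treated and untreated fracture mice; the fracture libraries are the same as in the comparison behind the choice. No gene of the set passed the threshold in edgeR, where 0.0% of all 20562 genes did (0 genes), and DESeq2 called 10 genes overall and none of the set. At an unadjusted p under 0.05 there were 6 of the 38 genes (15.8%) and 1113 of all genes (5.41%). The fitted level was higher with PDX for 34 genes and lower for 4, with a median log2 fold change of 0.23 (range -0.12 to 0.65), against -0.00 over all genes. A set chosen for low values in these fracture libraries is by that choice more likely to be higher in any group compared with them, so these counts and the median are a description. The adjusted p of the 38 genes ran from 0.825 to 0.998. Without the PDX library Male-DRG-1 the median was 0.08, with 31 genes higher and 7 lower.

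The 3 highest log2 fold changes with PDX were those of Ccnb1 (0.65 ± 0.30 SE; edgeR adjusted p = 0.912), Ccnb2, another B-type cyclin (0.59 ± 0.27; adjusted p = 0.912), and Bub1b (0.59 ± 0.27; adjusted p = 0.912). Ccnb1 had 0.479 to 1.51 CPM in fracture (median 1.14) and 1.09 to 3.11 with PDX (median 1.40). Ccnb2 had 1.09 to 2.10 CPM in fracture (median 1.44) and 1.40 to 4.11 with PDX (median 1.75), and Bub1b 0.895 to 1.63 (median 1.04) and 1.0 to 2.76 (median 1.36). In each of the 3 genes 2 PDX libraries were above every fracture library and the groups overlapped. Without the PDX library Male-DRG-1 the log2 fold changes were 0.39 for Ccnb1, 0.31 for Ccnb2 and 0.37 for Bub1b.

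The 3 lowest were Bub1, a checkpoint kinase (-0.12 ± 0.23; adjusted p = 0.990), Ttk, the kinase Mps1 (-0.06 ± 0.18; adjusted p = 0.995), and E2f1 (-0.01 ± 0.07; adjusted p = 0.997). Bub1 had 1.02 to 1.68 CPM in fracture (median 1.34) and 0.776 to 2.45 with PDX (median 1.102). Ttk had 1.15 to 1.89 (median 1.51) and 0.912 to 1.69 (median 1.54), and E2f1 26.6 to 33.7 (median 31.9) and 28.2 to 35.7 (median 29.7). The groups overlapped in all 3 genes, and the sign of Ttk and E2f1 turned when single libraries were left out. Without the PDX library Male-DRG-1 the log2 fold changes were -0.35 for Bub1, -0.15 for Ttk and -0.07 for E2f1. Tyms was the remaining gene below 0, at -0.01 ± 0.15.

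Top2a was 0.36 ± 0.17 higher on the log2 scale with PDX (adjusted p = 0.917), with 3 of 6 PDX libraries above every fracture library, and 0.18 without Male-DRG-1. Mki67 was at 0.50 ± 0.30 (adjusted p = 0.917), with 4 of 6 libraries above, and 0.15 without Male-DRG-1. Cdk1 was at 0.20 ± 0.20 (0.04 without that library), Mcm6 at 0.10 ± 0.10 (0.08 without it) and Pcna at 0.07 ± 0.05 (0.04 without it). Leaving out each library in turn gave 0.18 to 0.46 for Top2a and 0.15 to 0.63 for Mki67. The same gave 0.04 to 0.35 for Cdk1, 0.02 to 0.19 for Mcm6 and 0.04 to 0.11 for Pcna.

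The 6 genes with an unadjusted edgeR p under 0.05 were Birc5, Mcm5, Cdc20, Prc1, Ccnb2 and Bub1b. They were picked by that p, and the fracture libraries also entered the choice of the set. A second test on the same libraries therefore adds no independent evidence. By exact permutation of the 12 libraries on the log2 CPM scale (two-sided), Birc5, which guards chromosome segregation in the passenger complex, was 0.42 higher (permutation p = 0.00866), with 5 of 6 PDX libraries above every fracture library. Mcm5, a helicase subunit, was 0.31 higher (permutation p = 0.00866), also with 5 of 6 above, and Cdc20 0.36 higher (permutation p = 0.0260) with 4 of 6 above. Prc1, which bundles the central spindle, differed by 0.32 (permutation p = 0.0563), Ccnb2 by 0.50 (0.106) and Bub1b by 0.49 (0.115). None of the 6 held after adjustment over all genes (edgeR adjusted p 0.825 for Birc5, 0.887 for Mcm5 and Cdc20, and 0.912 for the others).

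Birc5 had 2.08 to 3.15 CPM in fracture (median 2.66) and 2.94 to 4.22 with PDX (median 3.56), and Mcm5 had 5.46 to 6.88 (median 6.14) and 6.52 to 10.4 (median 7.43). The ranges overlapped in both genes through a single PDX library. Without Male-DRG-1 the difference was 0.37 for Birc5 (permutation p = 0.0173), 0.22 for Mcm5 (permutation p = 0.0238) and 0.25 for Cdc20 (permutation p = 0.0455). Within males and within females, 3 against 3, the difference was 0.38 and 0.46 for Birc5 and 0.43 and 0.19 for Mcm5; such an exact test cannot give a p below 0.10.

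By role, the median log2 fold change with PDX was 0.43 for the 2 chromosome genes (Top2a and Mki67), 0.37 for the 6 cyclin, Cdk1 and anaphase-promoting genes, 0.33 for the 8 kinetochore and checkpoint genes, 0.24 for the 10 spindle genes, 0.11 for the 7 replication genes, 0.11 for the 3 transcription factors and 0.04 for the 2 cytokinesis genes. Without the PDX library Male-DRG-1 these medians were 0.16 for the chromosome genes, 0.17 for the cyclin group, 0.19 for the kinetochore group, 0.10 for the spindle genes, 0.08 for the replication genes, 0.02 for the transcription factors and -0.04 for the cytokinesis genes, so the order of the roles changed with that library. In males the median difference in log2 CPM was 0.27 (36 genes higher) and in females 0.12 (26 genes higher). Without Male-DRG-1, with 2 PDX males left, the male value was 0.04 (22 genes higher). The interaction of sex and PDX was past the threshold in none of the 38 genes by edgeR or DESeq2, beside 0.00486% of all genes by edgeR (1 gene) and 8 genes by DESeq2. At an unadjusted edgeR p under 0.05 there were none of the 38 genes and 851 of all genes (4.14%).

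**Figure D3:**
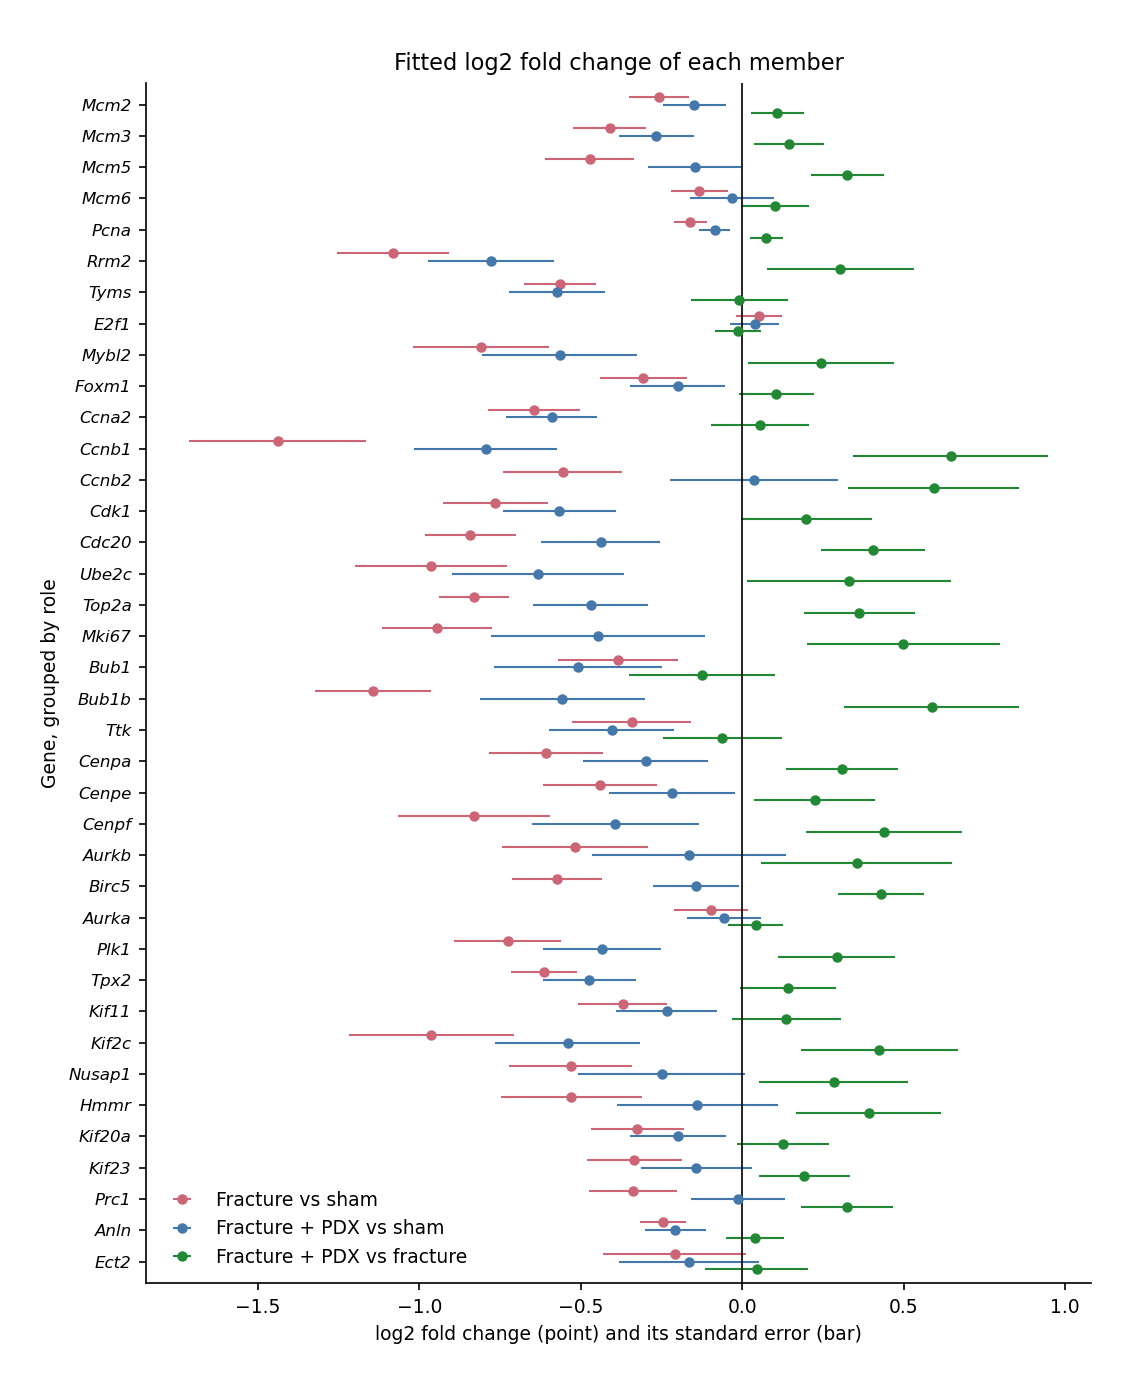
Fitted log2 fold change (horizontal axis) of each of the 38 genes, grouped by role, with bars for the standard error, for fracture against sham (red), Fracture+PDX against sham (blue) and Fracture+PDX against fracture (green). Red points lie left of 0 for 37 genes and green points lie right of 0 for 34; the 3 comparisons share libraries and are not independent of each other.

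Against sham, the same sham libraries that entered the choice, Fracture+PDX was lower for 36 genes and higher for 2 (Ccnb2 and E2f1), with a median log2 fold change of -0.26 (range -0.80 to 0.04). The edgeR fit placed 3 of the 38 genes, Ccna2, Rrm2 and Tyms, under an adjusted p of 0.05, beside 2.32% of all genes called lower, and because of the shared sham libraries this count is a description. Rrm2 had 7.66 to 11.4 CPM in sham (median 9.30) and 4.14 to 9.46 with PDX (median 4.65), and Tyms, whose groups did not overlap, 2.77 to 3.33 (median 2.99) and 1.25 to 2.55 (median 2.11). Ccna2 had 4.75 to 7.30 CPM in sham (median 5.73) and 3.21 to 5.24 with PDX (median 3.62). Without Male-DRG-1 all 38 genes were lower than in sham, with a median of -0.39. That fit placed 7 of them under the threshold, beside 679 of all genes in either direction (925 in the full fit). Without any other single library 0 or 1 of the 38 genes were placed under it. The trophoblast and placenta markers were lower than in sham here as well, 14 of 16 past the threshold. All 3 embryonic erythroid, 2 of 6 endothelial and 1 of 10 macrophage markers were also past it and lower. Past it and higher were 2 of 6 satellite glia and 1 of 10 sensory neuron markers, and the remaining lists had none past it.

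Marker levels also differed among the PDX libraries. In Male-DRG-1 the 38 cycle genes summed to 278 CPM, against 190 to 217 in the other 5 PDX libraries and 180 to 204 in the fracture libraries. The erythroid markers of that library summed to 2899 CPM, against 504 to 1297 in the other PDX libraries. Its 8 markers of marrow neutrophil precursors summed to 282 CPM, but the PDX library Female-DRG-1, whose cycle genes summed to 217 CPM, was close to it at 254 CPM.

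Between PDX and fracture no marker of any list was past the threshold in edgeR. The precursor list was at 53.5 to 113 CPM in fracture and 44.9 to 282 CPM with PDX, with 7 of 8 markers higher, 7 of 8 at an unadjusted p under 0.05 (beside 5.41% of all genes) and no marker at 0 in any library. The 6 mature neutrophil markers tested were all higher with PDX, 4 at an unadjusted p under 0.05, at a median log2 fold change of 0.89 (46.1 to 92.4 CPM in fracture and 45.003 to 217 with PDX). The 8 erythroid markers (982 to 1363 and 504 to 2899 CPM) and the 7 B-cell precursor markers tested (4.06 to 5.38 and 3.82 to 8.70 CPM) were all higher, with none at an unadjusted p under 0.05, and 9 of 10 macrophage markers were (86.4 to 118 and 86.0 to 125 CPM; 2 at an unadjusted p under 0.05). All 7 skeletal muscle markers were lower with PDX at a median of -1.91 (46.9 to 1047 and 11.7 to 471 CPM), and all 16 trophoblast and placenta markers at -0.53, none at an unadjusted p under 0.05 in either list. Whether these cells carry the PDX difference of the cycle genes was not tested.

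**Figure D4:**
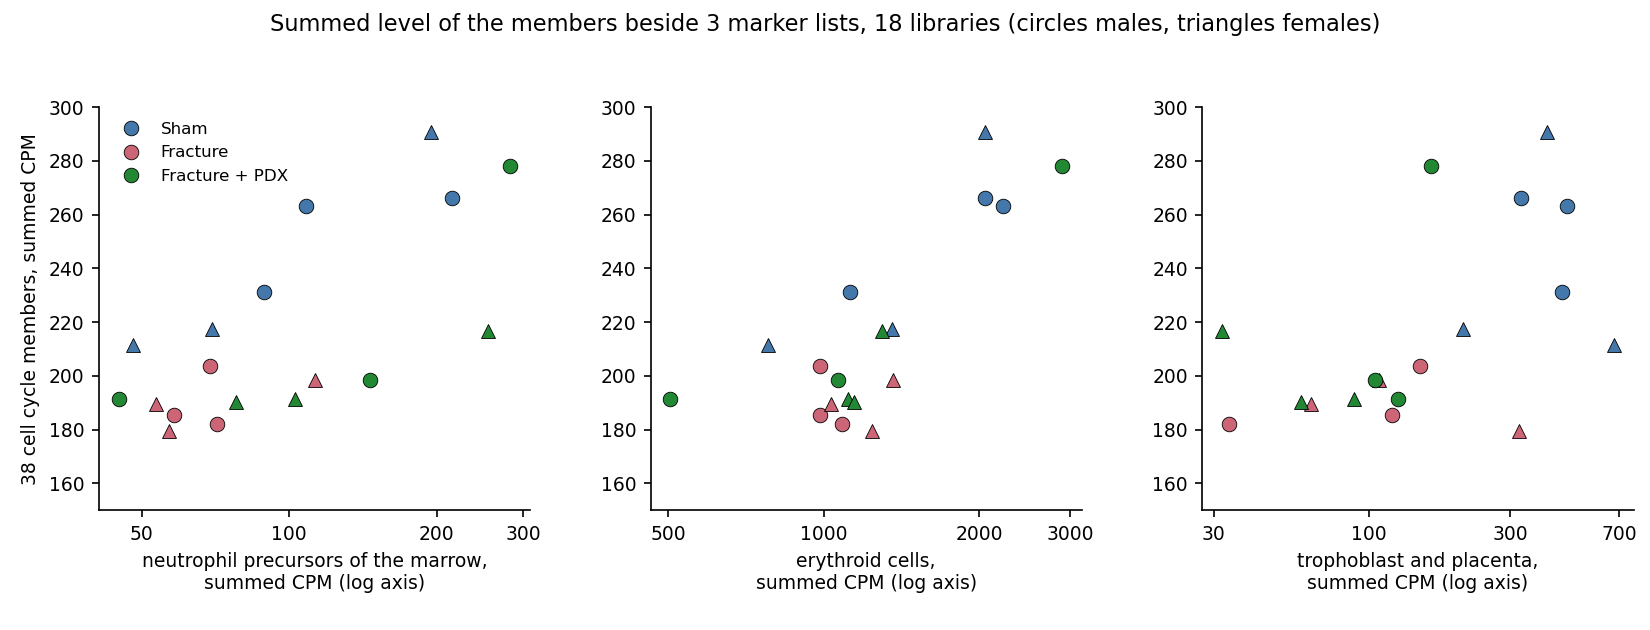
Summed CPM of the 38 cycle genes (vertical axis, from 150) against the summed CPM of the marrow neutrophil precursor markers, the erythroid markers and the trophoblast and placenta markers (log axes), 1 point per library, with circles for males and triangles for females. The PDX library Male-DRG-1 is at 278 CPM with the highest precursor and erythroid sums. The 3 sham libraries with the highest erythroid sums (2051 to 2225 CPM) are the 3 highest sham libraries for the cycle genes. The same 3 have the highest precursor sums among sham libraries (108 to 215 CPM).

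With the group means removed, the cycle genes varied together across the 18 libraries. The median Pearson r over the 703 pairs of genes was 0.48 (from -0.26 to 0.88), and the mean log2 CPM of the 7 replication genes followed that of the 28 mitotic and chromosome genes with r = 0.94. Top2a was closest to the mean of the other 37 genes (r = 0.93), followed by Cdc20 (0.86) and Rrm2 (0.85). Ttk (0.35), Anln (0.36) and Tyms (0.41) were farthest. These values are descriptions over libraries that share normalization and depth, and Male-DRG-1 is among the points.

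Other cycle genes, taken from lists that do not contain the 38, followed the same mean. The 32 other S-phase genes had r = 0.91 (Spearman rho 0.90; r = 0.85 without the 2 libraries farthest from the median) and the 48 other mitotic genes r = 0.94 (0.92; 0.92). The 15 genes of the pocket protein, E2F and MuvB list had r = 0.75 (0.65; 0.54), whereas the 6 G1 cyclins and kinases had r = 0.16 (0.04; 0.29) and the 7 inhibitors of cyclin-dependent kinases r = 0.38 (0.42; 0.38).

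Among the cell type markers, the erythroid list had r = 0.80 with the cycle genes (rho 0.64; 0.68 without the 2 farthest libraries), the marrow neutrophil precursors 0.78 (0.77; 0.79), mature neutrophils 0.74 (0.67; 0.65) and B-cell precursors 0.68 (0.61; 0.56). Macrophage markers had r = -0.63 (-0.57; -0.43) and fibroblast markers -0.60 (-0.47; -0.41). Satellite glia were at -0.35 (-0.24; -0.08), Schwann cells at -0.34 (-0.33; -0.30), endothelial cells at 0.25 (0.31; 0.15), sensory neurons at 0.15 (0.06; 0.14) and T cells at 0.09 (0.15; 0.04). The trophoblast and placenta list, which differed between the groups, had r = 0.15 within them (0.02; 0.20), the embryonic erythroid list 0.32 (0.38; 0.40) and skeletal muscle -0.28 (-0.28; -0.08).

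The 10 genes outside the cycle lists with the highest Pearson r to the mean of the 38 genes, over the 18 libraries with group means removed, were Hmgb2 (0.94), Ncf1 (0.86), Myo1f (0.86), Selplg (0.85), Arhgdib (0.84), Ermap (0.83), Tceal1 (0.82), Lmnb1 (0.82), Cdca7 (0.82) and Itgb2 (0.81). The median r of all 21340 genes was 0.00. Hmgb2, a chromatin protein, was at 14.7 ± 3.09 CPM in sham, 9.41 ± 1.42 in fracture and 13.2 ± 4.44 with PDX (mean ± SD, n = 6 each). Ncf1, a subunit of the phagocyte oxidase, was at 8.85 ± 2.71, 6.54 ± 0.851 and 9.09 ± 3.33 CPM, and Ermap, an erythroid membrane protein, at 3.39 ± 1.40, 1.42 ± 0.526 and 2.47 ± 2.26 CPM.

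In the comparison of PDX with fracture, none of the 108 other cycle genes passed the threshold in edgeR and 71 were higher. At an unadjusted p under 0.05 there were 7 of them (6.48%, beside 5.41% of all genes), so the genes named next are examples and not calls. Among the S-phase genes Cdc6, a loader of the helicase, had the smallest p and was at 0.97 ± 0.239 CPM in fracture and 1.63 ± 0.421 with PDX (log2 fold change 0.76 ± 0.21; adjusted p = 0.811), followed by Rfc5 (0.16 ± 0.08) and Cdt1 (0.32 ± 0.15). Among the mitotic genes these were Kif22 (0.32 ± 0.11; adjusted p = 0.887), Cdca5 (0.77 ± 0.32) and Ndc80 (0.40 ± 0.18). E2f4, a repressor partner of the pocket proteins, was at 0.27 ± 0.08 (adjusted p = 0.811), and the inhibitor Cdkn2a at -0.54 ± 0.24 (adjusted p = 0.908). Between fracture and sham 14 of the 108 were past the threshold, all lower (13%, beside 1.83% of all genes), which is a description, since this is the comparison behind the choice and most of these genes belong to lists that follow the 38. The calls were 4 of 32 S-phase genes, 7 of 48 mitotic genes, and 1 each of the G1, inhibitor and pocket protein lists.

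Females and males were compared over all 18 libraries with group as a covariate. No gene of the set was past the threshold in edgeR, beside 0.291% of all genes. At an unadjusted p under 0.05 there were 3 of the 38 genes (7.89%) and 2155 of all 21340 genes (10.1%), so the share in the set was not above that of all genes. DESeq2 called 1 gene of the set and 327 genes overall. The fitted level was lower in females for 31 genes, with a median log2 fold change of -0.10 (range -0.33 to 0.12). Anln, a scaffold of the cleavage furrow, was nearest to the threshold at -0.30 ± 0.07 (edgeR adjusted p = 0.0742), followed by Kif11, a spindle motor (-0.32 ± 0.13), and Mcm3 (-0.21 ± 0.09). Without the PDX library Male-DRG-1 the median was -0.00, with 19 genes lower and 19 higher.

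In position, 13 of the 38 genes overlap another gene of the table, 4 of them on the same strand. These 4 are Mybl2, Foxm1, Kif11 and Anln, whose same-strand partners had medians of 0 to 3 counts. The libraries were made with a stranded kit, but the sources used here do not give the strand setting of the counting, so reads of such pairs may be shared. Prc1 shares its whole span with Rccd1 on the other strand (median 333 counts over the libraries). Also on the other strand, Ube2c overlaps Tnnc2, a troponin of skeletal muscle (1662 bases, median 436 counts), and Ccna2 overlaps Exosc9 (863 bases). In the same way Kif20a overlaps Cdc23 (2327 bases) and Cdc20 overlaps Elovl1 (53 bases).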

How the data were processed

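Bulk RNA-seq of 18 DRG libraries was analysed. The authors deposited whole-number read counts and FPKM values per gene; per the labels' processing notes, reads were handled with cutadapt 1.10, FastQC, HISAT2 and StringTie on mm10, and the program that made the counts is not given in the sources used here. The deposited counts were tested with edgeR 4.0.16 (TMM, filterByExpr with a minimum count of 10, quasi-likelihood test, Benjamini-Hochberg adjustment over all genes, threshold 0.05), 2 groups per fit with sex as covariate. Levels are CPM with TMM scaling over 18 libraries; correlations and permutation tests used log2 CPM with a prior count of 2. DESeq2 1.42.0 and limma 3.58.1 served as alternatives, with R 4.3.3, Python 3.11.15 and scipy 1.17.1. Scripts were tested on simulated data.

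The 38 genes and all lists were chosen with earlier results of these data known. Ranges and medians by group are given for Top2a, Mki67, Pcna, Cdk1 and Mcm6. For the 3 highest and 3 lowest log2 fold changes of PDX against fracture they are given in fracture and Fracture+PDX. Other cycle genes are named by the smallest p per list, and like genes by r. Genes named beyond that were chosen after their values were seen. Labelled numbers were not used to pair mice in the main fits. After removal of group and sex means, 1 of 18 same-numbered pairs correlated over 0.1 (range -0.0705 to 0.126). Differently numbered pairs were not compared, so this cannot exclude a pairing or batch by number. All columns were mapped; those headed Con were read as sham because that was the group left for them, and their sex and number match the sham titles. Each library is 1 mouse per the study's description.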

Additional observations from a re-analysis of the deposited data

Results flagged for a closer look

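In groups of 6 libraries, the highest or lowest value was compared with its nearest neighbour by Dixon's gap, over 117 groups (38 genes and their sum, 3 groups each), of which chance flags about 1 in 20, that is 5.85. There were 13 such values, 8 of them the PDX library Male-DRG-1 as the highest of its group: Mcm5 at 10.4 CPM (next 7.84), Rrm2 at 9.46 (next 5.85), Foxm1 at 4.41 (next 3.43), Ccna2 at 5.24 (next 3.82), Ccnb1 at 3.11 (next 1.68), Mki67 at 20.03 (next 10.3), Bub1 at 2.45 (next 1.39) and the summed 38 genes at 278 CPM (next 217). The genes vary together, so these 8 values are not separate events.

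The others were single genes in single libraries. In fracture, Cenpa was lowest in Female-DRG-2 at 1.42 CPM (next 1.94), Cenpe was highest in Male-DRG-1 at 2.42 (next 1.78) and Prc1 was highest in Male-DRG-2 at 5.64 (next 4.09). In sham, Tpx2 was highest in Female-DRG-1 at 7.77 CPM (next 6.58) and Ect2 was lowest in Female-DRG-3 at 1.096 (next 2.603).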

How the results depend on the processing

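In PDX against fracture, 0 members passed under all 21 alternatives, and the median log2 fold change stayed above 0 (0.06 to 0.32; 0.08 to 0.32 leaving out each library, lowest without the PDX library Male-DRG-1). The replicate block, which pairs mice only by label number, called 7 members in fracture against sham in place of 13 and changed no other count by over 1.5 times. DESeq2 called 20 members there, beside 1506 of all genes. It called 6 members in PDX against sham, beside 1627 of all genes, and 1 (Anln) in females against males, beside 327. Without a low-count filter, 1 member was called in PDX against sham, and limma on log2(FPKM + 1) gave a median of -0.17 for fracture against sham, where the pseudocount shrinks low genes. Leaving out each library gave 7 to 14 members for fracture against sham (median -0.59 to -0.40; 7 or 8 without sham Male-DRG-2 or Female-DRG-1, or fracture Male-DRG-3, Female-DRG-2 or Female-DRG-3), 0 to 7 for PDX against sham (median -0.39 to -0.19; 7 without PDX Male-DRG-1), 0 to 1 for sex (median -0.16 to -0.00; 1 without PDX Male-DRG-2) and 0 for the interaction. Leave-one-out values of E2f1 in PDX against fracture ran from -0.0655 to 0.0154 and of Ttk from -0.149 to 0.0419, crossing 0; the cause was not tested. The permutation p of Cdc20 rose to 0.0606, 0.0606 and 0.0628 without fracture Male-DRG-3, Female-DRG-1 or Female-DRG-2. In the other direction, the permutation p of Prc1 fell from 0.0563 to 0.00866 without fracture Male-DRG-2, its flagged highest fracture library. It fell to 0.0216 without PDX Male-DRG-3. That of Ccnb2 fell from 0.106 to 0.0455 without fracture Male-DRG-1. That of Bub1b fell from 0.115 to 0.0476 without fracture Male-DRG-1 and to 0.0498 without PDX Female-DRG-3. Prc1, Ccnb2, Bub1b and Cdc20 were all picked by their p in the same libraries, so these shifts add no independent evidence. With 6 mice per group, the standard error of the log2 fold change with PDX ran from 0.05 (Pcna) to 0.32 (Ube2c), with a median of 0.17 over the members, so what could be resolved differed between genes.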
